A study of Rattus norvegicus with 12 samples.

Results

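The genes examined were those of 5 receptors that carry adrenergic, muscarinic and angiotensin signals in heart muscle (Adrb1, Adra1a, Adra1b, Chrm2 and Agtr1a), of the angiotensin precursor Agt and the angiotensin-converting enzyme Ace, and of Rgs2, a protein that shortens receptor signals. They were found as the probe sets whose single gene symbol, or an older synonym of it, is one of these names. This gave 8 genes with 11 probe sets, of 14217 genes with 1 symbol and 31042 probe sets that are not controls. The probe sets were 1369806_at for Adrb1, 1369797_at for Adra1a, 1368574_at for Adra1b, 1369245_at for Chrm2, 1387811_at for Agt, 1369291_at and 1384240_at for Agtr1a, 1387791_at and 1370028_at for Ace, and 1387074_at and 1368144_at for Rgs2.

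Expression was measured on 12 one-colour Affymetrix rat arrays, 3 for each of 4 groups: left atrium after an aorto-caval shunt, left atrium after a sham operation, left ventricle after the shunt, and left ventricle after a sham operation. The shunt joins the aorta to the vena cava, so that the heart carries an extra volume of blood. All rats were male Sprague Dawley animals of 225 to 275 g, studied 28 days after the operation. Each array held a pool of 2 tissues, and no age is stated in the labels. Values are deposited log2 RMA values, and each difference below is on the log2 scale, where 1 is a doubling of fluorescence.

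Noradrenaline from sympathetic nerves acts on the beta-1 receptor (Adrb1), which raises cAMP and with it the rate and force of contraction, and on the alpha-1 receptors (Adra1a, Adra1b), which signal through the G protein Gq. Acetylcholine from the vagus acts on the M2 receptor (Chrm2), which lowers cAMP and, through freed G protein subunits, opens the potassium channel made of the Kcnj3 and Kcnj5 subunits, a channel best known from atrial and pacemaker cells. Angiotensinogen (Agt) is cut by renin and then by Ace to angiotensin II, whose type 1 receptor (Agtr1a in rodents, beside Agtr1b) also signals through Gq, and Rgs2 ends Gq signals by speeding the return of the G protein to its resting form.

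Promoter sequence was at hand from RefSeq (assembly GRCr8) for 6 of the 8 genes, as the bases before an annotated start. It is shown for the 3 genes whose window lies at the outermost annotated start, Rgs2, Ace and Adrb1. Rgs2 had the largest difference between chambers among the 8 genes, and Adrb1 passed the test in no comparison. By the brighter probe set of each gene, only Ace of the 7 tested genes had a shunt minus sham difference above 0 in both chambers. Each run is the 250 bases before the start, at chr13:58352667-58352916 on the minus strand for Rgs2, chr10:91409879-91410128 on the plus strand for Ace and chr1:265776853-265777102 on the plus strand for Adrb1. Capitals mark matches on either strand to TATAAA (the TATA box), CCAAT (the CCAAT box), GGGCGG (the GC box) or TGACG (the cAMP response element's core).
Rgs2: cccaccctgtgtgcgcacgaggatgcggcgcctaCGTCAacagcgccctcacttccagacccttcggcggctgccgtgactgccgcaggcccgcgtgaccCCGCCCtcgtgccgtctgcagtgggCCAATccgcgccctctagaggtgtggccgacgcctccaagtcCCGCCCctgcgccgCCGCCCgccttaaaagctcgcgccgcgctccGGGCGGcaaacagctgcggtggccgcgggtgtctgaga
Ace: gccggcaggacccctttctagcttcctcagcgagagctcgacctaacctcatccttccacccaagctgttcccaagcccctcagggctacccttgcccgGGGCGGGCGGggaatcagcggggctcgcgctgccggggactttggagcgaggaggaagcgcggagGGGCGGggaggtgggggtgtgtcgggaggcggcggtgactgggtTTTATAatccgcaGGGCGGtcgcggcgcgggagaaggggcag
Adrb1: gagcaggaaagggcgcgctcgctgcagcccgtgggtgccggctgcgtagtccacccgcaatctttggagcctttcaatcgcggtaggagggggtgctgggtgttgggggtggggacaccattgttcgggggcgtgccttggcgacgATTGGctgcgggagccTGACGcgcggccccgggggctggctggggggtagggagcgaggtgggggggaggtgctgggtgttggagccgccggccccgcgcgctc

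The Rgs2 window held 4 GC boxes, 1 CCAAT box and 1 TGACG. The Ace window held 4 GC boxes, of which 2 overlap, and 1 TATA box on the opposite strand. The Adrb1 window held 1 CCAAT box and 1 TGACG. The full cAMP response element TGACGTCA, which contains TGACG, was in none of the 6 windows searched. Of 33469 rat promoter windows of the same length, 30.5% held GGGCGG, 34% CCAAT, 18.2% TGACG, 12.9% TATAAA and 1.59% TGACGTCA. A match is a run of letters and not a site shown to be used.

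Of the 8 genes, 7 had a probe set above the filter on dim signals, a mean log2 value of 4.01, and were tested. Adra1a, at a mean of 3.87, was below it. Where a gene has more than 1 probe set, the brighter one is given unless the other is named. Between chambers, 3 of the 7 genes passed the test in sham rats (Rgs2 and Chrm2 higher in left atrium, Adra1b lower), and 5 passed in shunt rats (Rgs2, Ace, Agtr1a and Chrm2 higher in left atrium, Adra1b lower). Of these, Agtr1a is above the filter through its atrial pools, since its ventricular shunt pools averaged 3.86. The chambers differed widely, so that 41.9% of all 18625 probe sets tested passed in shunt rats (22.4% higher and 19.4% lower in left atrium) and 47.2% in sham rats (25.2% higher and 22% lower). The atrial and ventricular arrays did not overlap for 5 of the 7 genes in shunt rats, beside 49.3% of probe sets, and for 4 of 7 in sham rats, beside 61.2%. Between shunt and sham pools, none of the 7 passed in left atrium, where 1.3% of probe sets passed, or in left ventricle, where 0.107% passed. With a mean over both chambers, 1 gene passed, Chrm2, which was lower in shunt pools, beside 4.8% of all probe sets and 2.83% in that direction. The test is limma's with Benjamini-Hochberg adjustment over the 18625 probe sets, n = 3 pools per group, with a threshold of 0.05.

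**Figure D1:**
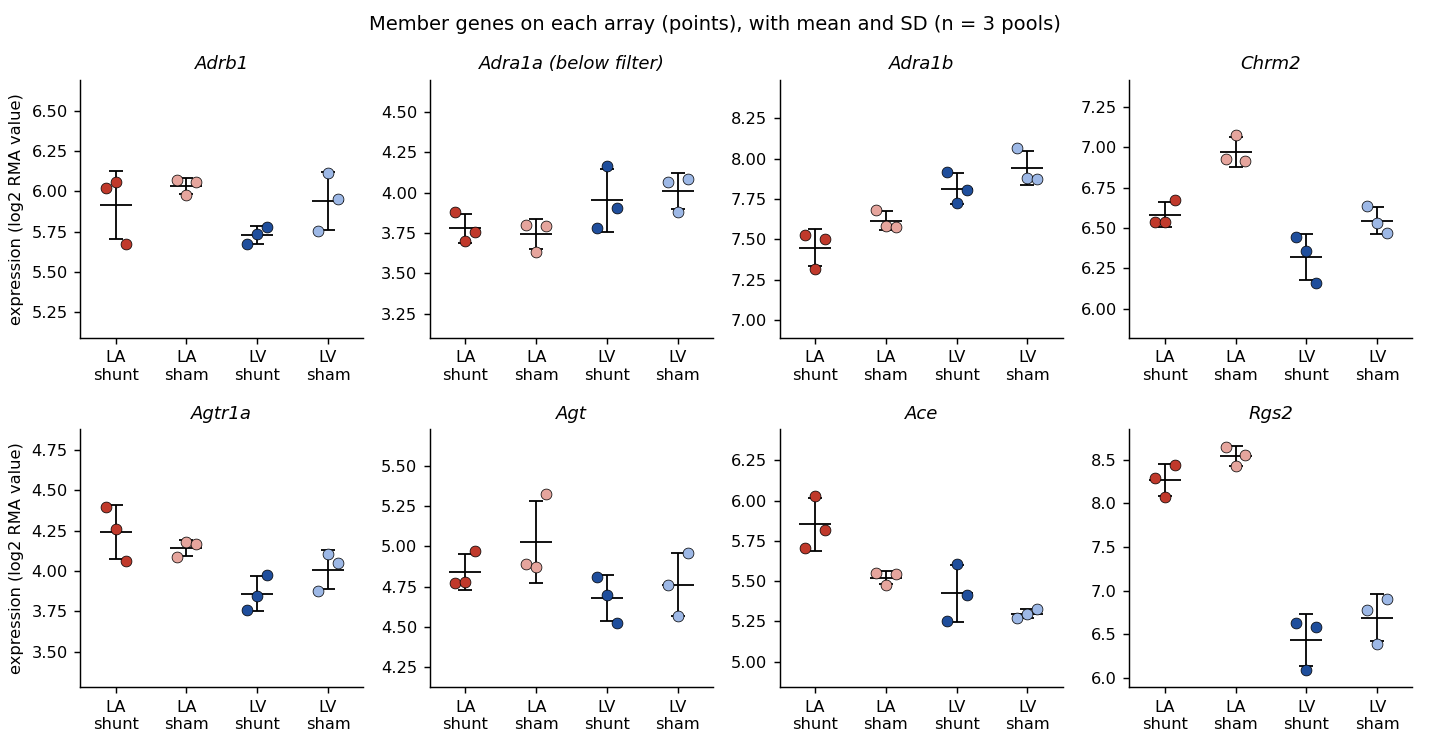
Expression of the 8 genes on each array, as log2 RMA values on the vertical axis, for shunt and sham pools of left atrium (LA) and left ventricle (LV). Points are pools, bars show the mean and SD (n = 3), the vertical scales differ between genes, and Rgs2 is the gene whose atrial and ventricular points lie farthest apart.

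At an unadjusted p under 0.05, 2 of the 7 genes differed between shunt and sham in left atrium, beside 15.2% of probe sets, and 1 in left ventricle, beside 14.7%. The median difference of the 7 genes was -0.17 in left atrium and -0.15 in left ventricle, against -0.01 over all probe sets tested in either chamber. Whether the 7 genes moved as a set was not tested. None of the 18625 probe sets passed the test of a difference between the chambers in the shunt effect, although 6.6% had an unadjusted p under 0.05, and none of the 7 genes did. The chambers' responses to the shunt are therefore given side by side and were not shown to differ.

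**Figure D2:**
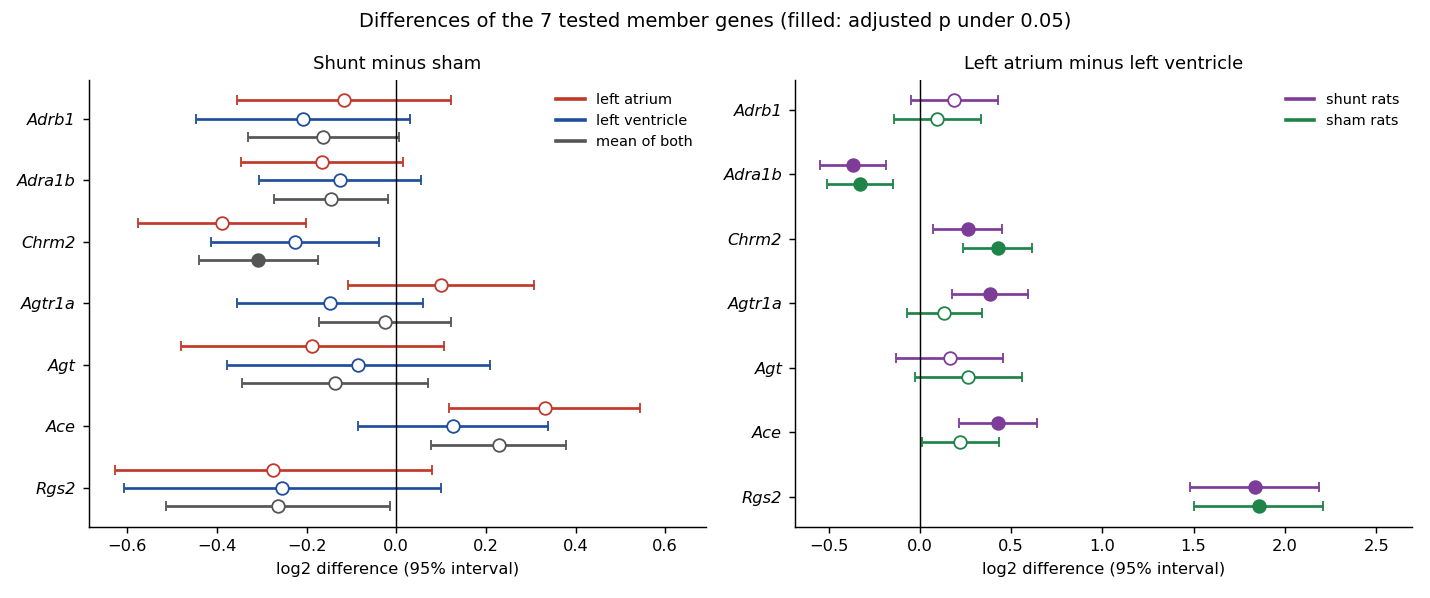
Differences of the 7 tested genes on the log2 scale with 95% intervals, shunt minus sham on the left and left atrium minus left ventricle on the right. Filled points have an adjusted p under 0.05. Among the shunt differences only Chrm2, as the mean of both chambers, is filled, while Rgs2 lies at 1.84 in shunt rats and 1.86 in sham rats between chambers.

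Chrm2, the M2 muscarinic receptor that slows the heart, had the largest shunt difference of the 5 receptors examined, in each chamber. In left atrium its log2 values were 6.54, 6.54 and 6.67 in shunt pools, against 6.93, 7.08 and 6.91 in sham pools. In left ventricle they were 6.44, 6.36 and 6.16 in shunt pools, against 6.64, 6.53 and 6.47 in sham pools. Every shunt pool lay below every sham pool of its chamber. Shunt and sham arrays did not overlap for 3 of the 7 genes in left atrium (Chrm2, Adra1b and Ace), beside 20.7% of all probe sets, and for 1 of 7 in left ventricle (Chrm2), beside 20.8%.

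As the mean of both chambers, Chrm2 fell by 0.31 in shunt rats (SE 0.06, 95% interval -0.44 to -0.17, limma adjusted p = 0.0196), a fold of 1.24. Among all probe sets tested, 2.5% had a larger fall in this comparison. The call was kept in all 22 alternative fits, with adjusted p from 0.00767 to 0.048. Within left atrium the difference was -0.39 (SE 0.09, interval -0.58 to -0.20, adjusted p = 0.0513), which misses the threshold. It passed in 7 of 23 alternatives, among them those without atrial shunt pool 3 (adjusted p = 0.036) and without ventricular shunt pool 3 (adjusted p = 0.0453). Within left ventricle the difference was -0.23 (SE 0.09, interval -0.41 to -0.04, adjusted p = 0.262). The difference between the chambers' responses was -0.16 (interval -0.43 to 0.10, adjusted p = 0.91).

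Chrm2 was also higher in left atrium than in left ventricle. The difference was 0.26 in shunt rats (SE 0.09, fold 1.20, adjusted p = 0.028) and 0.43 in sham rats (SE 0.09, fold 1.34, adjusted p = 0.00162). The order of the 4 groups was atrial sham, atrial shunt, ventricular sham and ventricular shunt, and only the middle neighbours overlapped, since ventricular sham pool 1 at 6.64 was above 2 atrial shunt pools at 6.54. The call in shunt rats was lost without atrial shunt pool 3 (0.22, adjusted p = 0.084) and without ventricular shunt pool 3 (0.18, adjusted p = 0.116). The call in sham rats was kept in all 23 alternatives. In bulk tissue, fewer cells of a type and less RNA per cell cannot be told apart, which holds for every result here.

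Levels of marker genes are given beside the Chrm2 result. The mean log2 value of the nerve and Schwann cell markers ranged from 4.38 to 4.72 in atrial shunt pools, against 4.25 to 4.44 in atrial sham pools, and from 4.18 to 4.25 in ventricular shunt pools, against 4.06 to 4.13 in ventricular sham pools. Of 2 such markers tested, Prph, a nerve filament protein, passed as higher in shunt pools in left atrium and as the mean of both chambers. Dbh, the other marker tested, passed in no shunt comparison. It read 4.26, 4.67 and 4.80 in atrial shunt pools, against 4.61, 4.62 and 4.29 in atrial sham pools. Th, which marks sympathetic nerves, and S100b, which marks Schwann cells, were below the filter. The rise of the list mean in shunt pools lay mostly in Prph. The 4 ventricular muscle markers averaged 6.20 to 6.65 in atrial shunt pools, against 5.32 to 5.86 in atrial sham pools, and 11.51 to 11.61 in ventricular shunt pools, against 11.18 to 11.33 in ventricular sham pools. Of these, Myl3 and Myh7, a light and a heavy chain of myosin, were higher in shunt pools in left atrium and as the mean of both chambers. In left atrium Myl2 (0.71) and Irx4 (-0.32, at atrial values below the filter) did not pass. In left ventricle none of the 4 passed, and Myh7 was at 0.98, Myl2 at 0.05, Myl3 at 0.05 and Irx4 at 0.06. The 3 mesothelial markers measured, of cells on the heart's surface, averaged 6.20 to 6.71 in atrial shunt pools, against 6.51 to 6.77 in atrial sham pools, and 4.58 to 4.74 in ventricular shunt pools, against 4.34 to 4.45 in ventricular sham pools. Of these, Krt19 was lower in shunt pools in left atrium and Wt1 was higher as the mean of both chambers. None of the 6 markers of all heart muscle cells passed in a shunt comparison, nor did any of the 6 fibroblast, 5 endothelial, 5 smooth muscle or 5 macrophage markers. The part of these markers in the Chrm2 result was not tested.

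Adra1b, a receptor that couples noradrenaline to Gq, was the 1 tested gene of the 8 with a higher level in the ventricle. Its values were 7.53, 7.32 and 7.50 in atrial shunt pools and 7.68, 7.58 and 7.58 in atrial sham pools. In left ventricle they were 7.92, 7.72 and 7.80 in shunt pools and 8.06, 7.88 and 7.88 in sham pools. All atrial pools lay below all ventricular pools. The difference was -0.37 in shunt rats (SE 0.08, fold 1.29, adjusted p = 0.00367) and -0.33 in sham rats (SE 0.08, fold 1.25, adjusted p = 0.00669). Shunt minus sham was -0.17 in left atrium (interval -0.35 to 0.01, adjusted p = 0.372), where the arrays did not overlap, and -0.13 in left ventricle (adjusted p = 0.51), where they did.

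Adra1a, the alpha-1A receptor, gave a dim signal that was not tested. Its values were 3.88, 3.70 and 3.75 in atrial shunt pools, 3.80, 3.63 and 3.79 in atrial sham pools, 3.78, 4.17 and 3.91 in ventricular shunt pools, and 4.07, 3.88 and 4.08 in ventricular sham pools. The atrial sham pools lay below the ventricular sham pools, and the shunt pools of the 2 chambers overlapped.

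Adrb1, the main adrenergic receptor of heart muscle, had values of 6.02, 6.06 and 5.67 in atrial shunt pools, against 6.07, 5.98 and 6.06 in atrial sham pools. The ventricular values were 5.67, 5.74 and 5.78 in shunt pools, against 5.75, 6.11 and 5.95 in sham pools. Atrial shunt pool 3 lay below the other atrial pools, and shunt and sham pools overlapped in both chambers. Shunt minus sham was -0.12 in left atrium (SE 0.11, interval -0.36 to 0.12, adjusted p = 0.671) and -0.21 in left ventricle (SE 0.11, interval -0.45 to 0.03, adjusted p = 0.4). Left atrium minus left ventricle was 0.19 in shunt rats (adjusted p = 0.19) and 0.10 in sham rats (adjusted p = 0.497). Without atrial shunt pool 3, the difference between chambers in shunt rats was 0.31 and passed (adjusted p = 0.0219).

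Agtr1a, the receptor of angiotensin II, had values of 4.40, 4.26 and 4.06 in atrial shunt pools, against 4.09, 4.18 and 4.16 in atrial sham pools. In left ventricle the values were 3.76, 3.85 and 3.97 in shunt pools, against 3.87, 4.10 and 4.05 in sham pools. The shunt pools of the atrium lay above those of the ventricle, and shunt and sham pools overlapped in each chamber. The ventricular shunt pools lay below the filter value of 4.01, so the probe set entered the test through the atrium, and how far its ventricular signal stood above background was not measured. With that limit on its size, left atrium minus left ventricle was 0.38 in shunt rats (SE 0.09, adjusted p = 0.00663) and 0.13 in sham rats (adjusted p = 0.263). Whether this difference between chambers was larger in shunt than in sham rats is the test of unequal shunt effects, which gave 0.25 (interval -0.05 to 0.54, adjusted p = 0.819). Shunt minus sham was 0.10 in left atrium (adjusted p = 0.679) and -0.15 in left ventricle (adjusted p = 0.497).

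The second Agtr1a probe set was below the filter and was not tested. It read 4.78, 4.15 and 4.09 in atrial shunt pools, 4.11, 4.04 and 4.23 in atrial sham pools, 3.68, 3.36 and 3.54 in ventricular shunt pools, and 3.74, 3.46 and 3.30 in ventricular sham pools. On it the atrial pools lay above the ventricular pools under both operations. All its ventricular values were below the filter value, so no size of the difference is given. The probe set of Agtr1b, a close copy of Agtr1a, had a mean of 2.68 over the 12 arrays, and how far probes of the pair bind each other's RNA was not tested.

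Agt, the precursor from which angiotensin is cut, had values of 4.77, 4.78 and 4.97 in atrial shunt pools and 4.89, 4.87 and 5.32 in atrial sham pools. The ventricular values were 4.81, 4.70 and 4.53 in shunt pools and 4.76, 4.57 and 4.96 in sham pools. The groups overlapped in each comparison, and atrial sham pool 3 was the highest of the 12. Shunt minus sham was -0.19 in left atrium (SE 0.13, interval -0.48 to 0.11, adjusted p = 0.553) and -0.09 in left ventricle (adjusted p = 0.815). Left atrium minus left ventricle was 0.16 in shunt rats (adjusted p = 0.355) and 0.27 in sham rats (adjusted p = 0.124).

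Ace, which makes angiotensin II and in the heart is known mainly from the vessel lining, had values of 5.71, 6.03 and 5.82 in atrial shunt pools, against 5.55, 5.47 and 5.54 in atrial sham pools. In left ventricle it had 5.25, 5.61 and 5.42 in shunt pools, against 5.27, 5.29 and 5.33 in sham pools. All atrial shunt pools lay above all atrial sham pools, and 2 of 3 ventricular shunt pools lay above all ventricular sham pools. Shunt minus sham was 0.33 in left atrium (SE 0.10, interval 0.12 to 0.54, adjusted p = 0.133) and 0.13 in left ventricle (interval -0.09 to 0.34, adjusted p = 0.581). The mean of both chambers was 0.23 (SE 0.07, interval 0.08 to 0.38, adjusted p = 0.0817), which passed in 3 of 22 alternatives. None of these passed in the fit reported. On the dimmer Ace probe set, shunt minus sham was 0.07 in left atrium (adjusted p = 0.775) and -0.01 in left ventricle (adjusted p = 0.97). Its mean of both chambers was 0.03 (adjusted p = 0.83), and its shunt and sham arrays overlapped in each chamber.

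Between chambers, Ace was higher in left atrium in shunt rats, by 0.43 (SE 0.10, fold 1.34, adjusted p = 0.00392), and the difference in sham rats was 0.22 (adjusted p = 0.0786). The difference in sham rats passed in 6 of 23 alternatives, with adjusted p from 0.0131 to 0.474 over all of them, and without ventricular shunt pool 2 it was 0.049. The dimmer Ace probe set did not show this. It read 4.16, 4.36 and 4.34 in atrial shunt pools, 4.37, 4.10 and 4.17 in atrial sham pools, 4.18, 4.40 and 4.21 in ventricular shunt pools, and 4.22, 4.22 and 4.39 in ventricular sham pools. On it left atrium minus left ventricle in shunt rats was 0.02 (adjusted p = 0.856), and with the mean of both probe sets the difference was 0.23 (adjusted p = 0.0584).

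The mean log2 value of the endothelial markers ranged from 8.18 to 8.40 in atrial shunt pools and from 8.27 to 8.32 in atrial sham pools, against 8.54 to 8.57 in ventricular shunt pools and 8.42 to 8.46 in ventricular sham pools, with 1 of 5 higher and 3 lower in left atrium under each operation. Fibroblast markers were higher in left atrium, 6 of 6 in shunt rats and 5 of 6 in sham rats, with mean values of 9.76 to 10.15 in atrial shunt pools and 10.03 to 10.09 in atrial sham pools, against 9.22 to 9.54 in ventricular shunt pools and 9.33 to 9.41 in ventricular sham pools. Of all probe sets tested, 22.4% were higher and 19.4% lower in left atrium in shunt rats, and 25.2% and 22% in sham rats. The part of these markers in the result was not tested.

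Rgs2, which switches off Gq, had the widest chamber difference of the 8 genes. Its values were 8.29, 8.08 and 8.44 in atrial shunt pools and 8.65, 8.43 and 8.55 in atrial sham pools, against 6.63, 6.09 and 6.58 in ventricular shunt pools and 6.77, 6.39 and 6.90 in ventricular sham pools. Every atrial pool lay more than 1 log2 unit above every ventricular pool. The second probe set read 7.23, 6.75 and 7.21 in atrial shunt pools and 7.50, 7.28 and 7.42 in atrial sham pools, against 5.38, 5.24 and 5.54 in ventricular shunt pools and 5.67, 5.0 and 5.67 in ventricular sham pools.

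Left atrium minus left ventricle for Rgs2 was 1.84 in shunt rats (SE 0.16, fold 3.57, adjusted p = 3.16e-06) and 1.86 in sham rats (SE 0.16, fold 3.62, adjusted p = 2.7e-06). The second probe set gave 1.67 in shunt rats (fold 3.19, adjusted p = 1.6e-05) and 1.96 in sham rats (fold 3.88, adjusted p = 4.19e-06). On the brighter probe set, 0.961% of all probe sets tested had a larger atrial excess in shunt rats and 1.06% in sham rats. The calls were kept in all alternatives on both probe sets.

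Shunt minus sham for Rgs2 was -0.27 in left atrium (SE 0.16, interval -0.63 to 0.08, adjusted p = 0.456) and -0.25 in left ventricle (SE 0.16, interval -0.61 to 0.10, adjusted p = 0.494), and the groups overlapped in both chambers. On the second probe set the values were -0.34 in left atrium (adjusted p = 0.403), where the arrays did not overlap, and -0.06 in left ventricle (adjusted p = 0.912). The difference between the chambers' responses was -0.02 (interval -0.52 to 0.48) on the brighter probe set. On the second it was -0.28 (interval -0.84 to 0.27, adjusted p = 0.941).

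**Figure D3:**
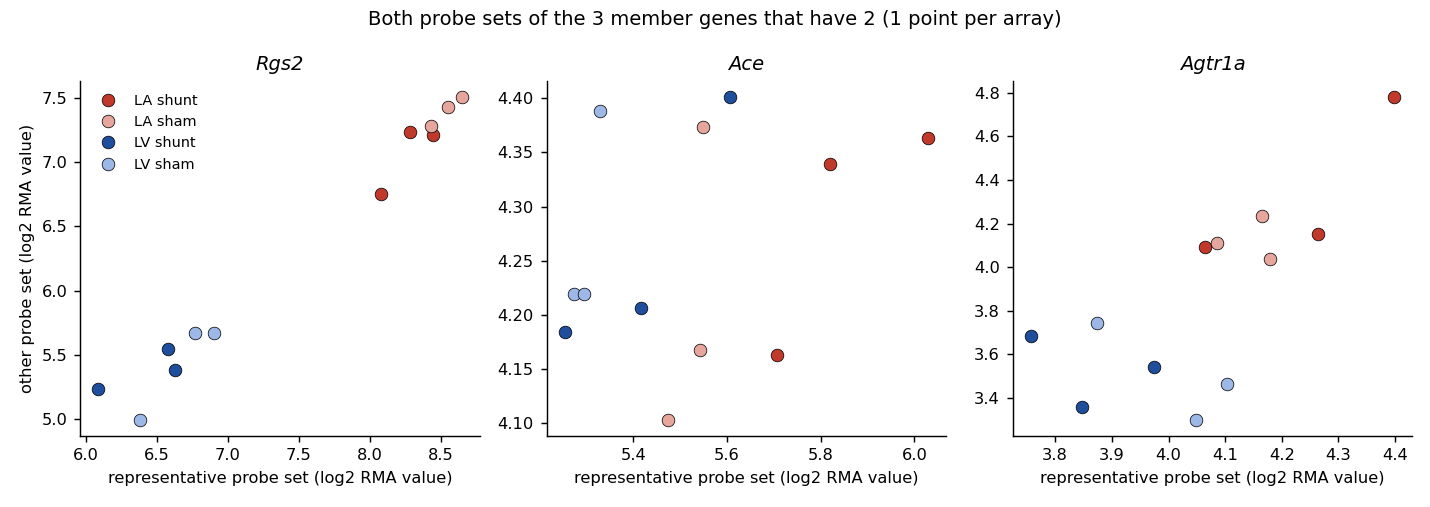
The 2 probe sets of Rgs2, Ace and Agtr1a plotted against each other, each axis in log2 RMA values and each point 1 of 12 arrays. The Rgs2 probe sets rise together across chambers, while for Ace the atrial shunt pools stand to the right of the other arrays on the horizontal axis and mix with them on the vertical one.

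Over the 12 arrays the Rgs2 probe sets correlated at r = 0.99, and at 0.84 after each group's mean was taken off. For Agtr1a the values were 0.73 and 0.23, and for Ace 0.36 and 0.71. These are descriptions over 12 arrays that share 4 groups, so that the values over all arrays also hold the differences between groups. With the group means taken off, r was lower for Rgs2 and Agtr1a and higher for Ace.

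The chamber labels fitted their markers. The 4 atrial muscle markers averaged 13.55 to 13.67 on atrial arrays and 6.38 to 7.72 on ventricular arrays, and the 4 ventricular muscle markers averaged 5.32 to 6.65 on atrial arrays and 11.18 to 11.61 on ventricular arrays. The difference between the 3′ and 5′ hexokinase control probe sets, a sign of RNA quality, ranged from 0.80 to 1.44 in atrial shunt pools, against 1.01 to 1.10 in atrial sham pools, and from 0.82 to 1.23 in ventricular shunt pools, against 0.84 to 1.02 in ventricular sham pools. A fit chosen after seeing the data left out the 3 shunt arrays of highest value, atrial pool 3 and ventricular pools 1 and 3. Only ventricular shunt pool 2 then stood for its group, so differences are given without calls. This fit is nevertheless counted above among the alternatives that passed for Chrm2 in left atrium. The same holds for Ace as the mean of both chambers and between chambers in sham rats. In this fit Chrm2 in left atrium was -0.43, and the means of both chambers were 0.33 for Ace and -0.48 for Rgs2. Between chambers in shunt rats, Chrm2 was 0.18, Ace 0.26 and Adra1b -0.30.

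The wider signalling genes, 109 in 9 lists of which 101 were on the array and 79 were tested, differed mostly by chamber. In shunt rats 19 were higher and 21 lower in left atrium than in left ventricle, which is 50.6%. In sham rats 19 were higher and 22 lower, which is 51.9%. Both shares are near those of all probe sets, 41.9% in shunt rats and 47.2% in sham rats. Beside the counts by list below, 22.4% of all probe sets were higher and 19.4% lower in left atrium in shunt rats. In sham rats 25.2% were higher and 22% lower. Between shunt and sham pools, 1 was higher and 1 lower in left atrium, which is 2.53% beside 1.3% of all probe sets. None passed in left ventricle, beside 0.107%, and 2 were higher and 4 lower as the mean of both chambers, which is 7.59% beside 4.8%.

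**Figure D4:**
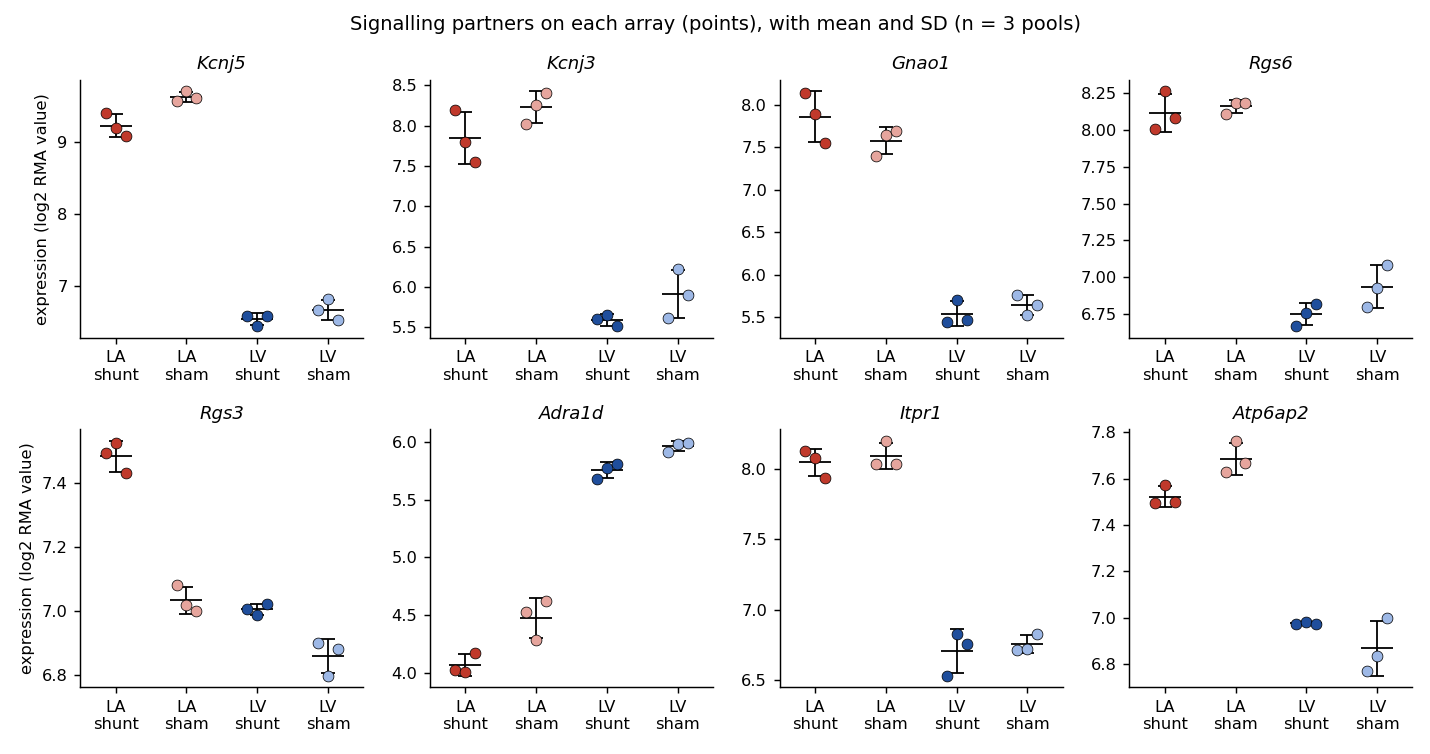
Log2 RMA values of 8 of the signalling genes named in the text, chosen for the plot after their values were seen, in shunt and sham pools of left atrium (LA) and left ventricle (LV). Points are pools with the mean and SD (n = 3). Kcnj5, Kcnj3, Gnao1, Rgs6, Itpr1 and Atp6ap2 lie higher in the atrium and Adra1d in the ventricle, and for Rgs3 the atrial shunt pools lie above all others.

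Both subunits of the potassium channel that the M2 receptor opens were far higher in left atrium. Kcnj5 read 9.41, 9.20 and 9.09 in atrial shunt pools and 9.58, 9.71 and 9.62 in atrial sham pools, against 6.58, 6.43 and 6.58 in ventricular shunt pools and 6.65, 6.81 and 6.52 in ventricular sham pools. The difference was 2.70 in shunt rats (adjusted p = 1.91e-09) and 2.98 in sham rats (adjusted p = 7.85e-10). For Kcnj3 the difference was 2.26 in shunt rats (adjusted p = 9.71e-07) and 2.32 in sham rats (adjusted p = 7.2e-07). As the mean of both chambers Kcnj5 fell by 0.27 in shunt rats (SE 0.07, adjusted p = 0.0465), a call kept in 5 of 22 alternatives and in 1 of the 12 fits that each left out 1 array. The Kcnj3 mean was -0.35 (adjusted p = 0.119). The other muscarinic receptor genes, Chrm1, Chrm3, Chrm4 and Chrm5, were all below the filter.

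Of the other adrenergic receptors, 5 of 6 were on the array and 3 were tested. In left atrium none was higher, 2 of the 3 were lower in shunt rats and 3 in sham rats. Of all probe sets, 19.4% were lower in shunt rats and 22% in sham rats. Adra2b and Adra2c averaged 4.01 and 3.99 in atrial sham pools, near the filter value. Adra1d, the third alpha-1 receptor, was lower in left atrium by far more than Adra1b. It read 4.03, 4.01 and 4.18 in atrial shunt pools and 4.53, 4.29 and 4.62 in atrial sham pools, against 5.68, 5.77 and 5.81 in ventricular shunt pools and 5.91, 5.98 and 5.99 in ventricular sham pools. The chamber difference was -1.68 in shunt rats (adjusted p = 4.22e-08) and -1.48 in sham rats (adjusted p = 1.09e-07). The atrial shunt pools lay near the filter value of 4.01, and how far they stood above background was not measured. That limits the size of this difference and of the atrial shunt difference. Every shunt pool of Adra1d lay below every sham pool of its chamber. It fell by 0.41 with the shunt in left atrium (SE 0.09, adjusted p = 0.0467) and by 0.31 as the mean of both chambers (SE 0.06, adjusted p = 0.0207). The atrial call was kept in 10 of 22 alternatives, and in 2 of 12 fits that each left out 1 array, while the mean was kept in 18 of 21.

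Among the other RGS proteins, 2 of 12 tested were higher and 3 lower in left atrium under each operation. Rgs6, which with Gnb5 is known to speed the end of M2 receptor signals, was higher in left atrium by 1.36 in shunt rats (adjusted p = 2.45e-07) and by 1.22 in sham rats (adjusted p = 5.58e-07). Gnb5 itself was higher by 0.81 in sham rats, and averaged 6.95 in atrial and 6.28 in ventricular shunt pools. Rgs4 was lower by 0.49 in shunt rats, and averaged 7.26 in atrial and 7.41 in ventricular sham pools. Rgs16 was lower by 0.54 in sham rats, and averaged 4.74 in atrial and 5.15 in ventricular shunt pools.

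Rgs3 was the only listed gene that was higher with the shunt in left atrium. It read 7.50, 7.53 and 7.43 in atrial shunt pools and 7.08, 7.02 and 7.0 in atrial sham pools, against 7.01, 6.99 and 7.02 in ventricular shunt pools and 6.90, 6.80 and 6.88 in ventricular sham pools. It rose by 0.45 in left atrium (SE 0.06, adjusted p = 0.00449) and by 0.30 as the mean of both chambers (adjusted p = 0.00401). The difference between the chambers' responses was 0.30 (adjusted p = 0.46). The atrial call was lost with the mean of the gene's probe sets (0.23, adjusted p = 0.117) and in a fit of atrial arrays alone (adjusted p = 0.063). Rgs10 rose by 0.25 as the mean of both chambers (adjusted p = 0.038), a call kept in 11 of 22 alternatives.

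Of 16 G protein and adenylyl cyclase genes tested, 5 were higher and 2 lower in left atrium in shunt rats, and 5 were higher and 3 lower in sham rats. Gnao1, the alpha subunit of the G protein Go, was higher by 2.32 in shunt rats (adjusted p = 1.38e-07) and by 1.94 in sham rats (adjusted p = 5.56e-07). Gng2, a gamma subunit, was higher by 1.47 in shunt rats and by 1.55 in sham rats. None of the 16 passed in a shunt comparison. Among 6 receptor kinases and arrestins, which silence active receptors, Grk5 fell by 0.23 as the mean of both chambers (adjusted p = 0.0362), a call kept in 11 of 22 alternatives.

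In the cAMP pathway, 4 of 19 tested genes were higher and 9 lower in left atrium in shunt rats, and 4 were higher and 7 lower in sham rats. Ppp1r1a, an inhibitor of protein phosphatase 1, was higher by 1.23 in shunt rats and by 1.61 in sham rats. Pln, the brake on the calcium pump of the sarcoplasmic reticulum, was lower by 0.54 in shunt rats and by 0.63 in sham rats. Pde4d, which breaks down cAMP, was lower by 0.78 in shunt rats and by 0.58 in sham rats. Prkaca, the catalytic subunit of protein kinase A, fell by 0.25 with the shunt as the mean of both chambers (adjusted p = 0.0322), a call kept in 13 of 22 alternatives.

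Downstream of Gq, 3 of 15 tested genes were higher and 4 lower in left atrium in shunt rats, and 3 were higher and 5 lower in sham rats. Itpr1, a calcium release channel opened by inositol trisphosphate, was higher by 1.34 under each operation. Prkch, a protein kinase C, was lower by 0.66 in shunt rats and by 0.50 in sham rats. Of 6 other renin-angiotensin genes tested, Atp6ap2, the prorenin receptor, was higher by 0.55 in shunt rats (adjusted p = 6.38e-05) and by 0.82 in sham rats (adjusted p = 2.3e-06). Agtrap, which binds the angiotensin receptor, was higher by 0.38 in shunt rats and by 0.53 in sham rats, and Enpep, a peptidase that trims angiotensin II, was lower by 0.44 in shunt rats. None of the 15 Gq genes or the 6 renin-angiotensin genes passed in a shunt comparison.

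The genes whose values ran most like those of each of the 7 were taken by Pearson's r over the 12 arrays, among 10606 genes, as a description in which the 4 groups and the arrays are shared. For Rgs2 they were Dyrk2, Erlec1 and Srl, each at 0.99. For Adra1b they were Jph1 at 0.97, Mdh2 at 0.97 and Col5a3 at 0.96. For Chrm2 they were Ntrk2 at 0.94, Nfyb at 0.93 and Rab28 at 0.93. Ace ran with Fbxl22 at 0.95, Ifitm3 at 0.94 and Mfap4 at 0.94. Agt ran with Alg14 at 0.94, Krt10 at 0.89 and Gpn3 at 0.83, and Agtr1a with Ninj2, Prepl and Phf20, each at 0.92. Adrb1 had the weakest nearest gene, Cd59b at 0.90, followed by Abhd10 and Dnajb12, both at 0.87.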

How the data were processed

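RNA of 12 pools was hybridised to one-colour Affymetrix rat arrays. The deposited log2 values come from RMA, per the submitters' processing notes, with the scale read from the values, running from 2.05 to 14.29. Neither an RMA version nor the set of arrays normalized together is stated. The number of arrays limits the precision.

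Gene symbols were those of the platform annotation, updated through Entrez identifiers to the GRCr8 gene table for 20758 of 20826 probe sets with a single symbol. No name was taken from the 436 with several, and 9780 were unnamed here. After 57 controls were removed from 31099 probe sets, the 18625 whose mean reached the 40th percentile (log2 of 4.01) were tested. The brightest of a gene's passing probe sets stood for the gene.

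The test was limma 3.58.1 (lmFit and eBayes, R 4.3.3) on all 12 arrays at once, with a mean for each group, 8 residual degrees of freedom and a prior of 3.68. P-values are two-sided, Benjamini-Hochberg adjusted over all probe sets tested at a threshold of 0.05, and measure the spread between pools. On simulated left atrium arrays of 18625 probe sets, 72% of 50 probe sets changed by 0.5 were recovered, 100% of 50 changed by 1, 98% of 50 changed by 1.5 and 98% of 50 changed by 2, with 5 other calls.

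The genes and lists were chosen with earlier results of these data known. All 8 genes are named. In each signalling list and comparison, up to 3 genes past the threshold with the smallest p could be named, and the text names part of these. For each of the 7 tested genes the 3 of highest Pearson correlation are named. The alternatives were an unfiltered table, a stricter filter (60th percentile), quantile or cyclic loess normalization on top of the deposited values, weights for arrays, a fit restricted to the arrays of a comparison, replicate numbers as a fixed or random block, averaged probe sets of a gene, the hexokinase 3′ minus 5′ difference as a covariate, and each array left out in turn. A fit without the 3 shunt arrays of highest hexokinase difference was chosen after seeing the data. It left ventricular shunt pool 2 alone in its group and is counted among the alternatives.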

Additional observations from a re-analysis of the deposited data

How the results depend on the processing

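With 3 pools per group, the smallest change simulated, 0.5 on the log2 scale, was recovered for 72% of probe sets, and smaller ones, such as all shunt differences of the 8 genes, were not simulated. How far values near or below the filter stood above background was not measured, and probe set signals cannot be compared between genes. Each fit shares 1 estimate of the spread over the groups.

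The count of the 7 genes called between shunt and sham in left atrium was 0. It became 1 with the filter at the 60th percentile, averaged probe sets of a gene and the hexokinase covariate, and 2 with array weights. It ranged from 0 to 1 when 1 array was left out. Beside it, the count over all probe sets, 243, became 352, 233, 758 and 910 in these 4 fits, in that order. As the mean of both chambers, the count of 1 became 2 with array weights, the hexokinase covariate and the replicate block over all groups. Over all probe sets the count of 894 became 1664, 1791 and 868 in these fits. Between chambers in shunt rats, the count of 5 ranged from 4 to 5 when 1 array was left out. It became 6 with array weights, which added Adrb1 (0.27, adjusted p = 0.0481). Over all probe sets the count of 7801 became 8550 in that fit. The fit without the 3 shunt arrays of highest hexokinase difference left 1 ventricular shunt pool, so no count is given for it.

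Same-numbered atrial and ventricular arrays correlated in their deviations at -0.24, 0.44 and 0.44 in shunt rats. In sham rats these values were 0.23, 0.26 and 0.07, and across operations same-numbered arrays ran from -0.10 to 0.06. Not every pair was over 0.1, so the replicate numbers were not taken to pair the samples. Whether both chambers came from the same rats is not stated, and the fit reported treats them as independent. The replicate block over all groups added Rgs2 (-0.26, adjusted p = 0.0467) as the mean of both chambers. The random replicate block had a correlation of 0.15 and added Ace in sham rats between chambers (0.22, adjusted p = 0.0463). With this block 526 probe sets passed as the mean of both chambers, against 894 in the fit reported.

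Beside the alternatives named with the results, the Chrm2 chamber difference in shunt rats was lost with quantile normalization (0.19, adjusted p = 0.125) and cyclic loess (0.23, adjusted p = 0.0649). It was also lost with only the groups compared (adjusted p = 0.0712). Without the 3 arrays the chamber differences in shunt rats rest on 1 ventricular shunt pool, at 0.18 for Chrm2, 0.26 for Ace and -0.30 for Adra1b.

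None of the differences that turned sign was called in the fit reported. Rgs2 in the difference of shunt effects became 0.0043 with quantile normalization, 0.0019 with cyclic loess, 0.053 with the hexokinase covariate and 0.24 without the 3 arrays, and ran from -0.19 to 0.13 when 1 array was left out. The dimmer Ace probe set became 0.032 in sham rats between chambers with cyclic loess, and without the 3 arrays 0.13 in left ventricle, -0.077 in the difference of shunt effects and -0.14 in shunt rats between chambers. With 1 array left out it ran from -0.080 to 0.044 in left ventricle, from -0.0035 to 0.070 as the mean and from -0.015 to 0.093 in shunt rats between chambers. Without the 3 arrays, Adrb1 in left atrium became 0.0048, the Agtr1a mean 0.013 and Adra1b in the difference of shunt effects 0.023. With 1 array left out these ran from -0.19 to 0.0048, from -0.064 to 0.020 and from -0.10 to 0.026. Agt ran from -0.20 to 0.045 in the difference of shunt effects and from -0.18 to 0.013 in left ventricle, and the second Rgs2 probe set from -0.28 to 0.055 in left ventricle.

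Over all alternatives, the number of probe sets called between shunt and sham ran from 43 to 910 in left atrium (243 in the fit reported), from 0 to 215 in left ventricle (20) and from 309 to 1791 as the mean of both chambers (894), and from 0 to 19 in the difference of shunt effects (0). In left atrium the count was 469 without atrial shunt pool 3 and 66 without atrial sham pool 3. The causes were not tested.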
